A study of Mus musculus with 3 samples.

Results

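Plasmacytoid dendritic cells (pDCs) of the sciatic nerve were described from 175 of 11640 deposited cells. They are the cells that the authors' cell table names pDC, which are all the cells of its cluster 12. The cells are CD45+ leukocytes of the sciatic nerve of NOD.AIRE GW/+ mice aged 15 weeks, measured by droplet sequencing that counts molecules by their barcodes (UMIs). NOD is a mouse strain prone to autoimmunity, and the GW/+ mice carry a variant of Aire, a regulator that lets thymic cells display tissue antigens to developing T cells. The nerves were taken after perfusion of the heart, minced and digested with collagenase. All 3 libraries are of this genotype and age. Nerves of wild-type mice are not analysed here, so each comparison sets pDCs against other cell classes of the same nerves. Libraries 1 and 2 were sequenced from the 3′ end and library 3 from the 5′ end, so that chemistry and nerve cannot be told apart. The labels do not say whether the libraries are separate animals or pools. The p-values therefore measure how much differences between classes varied from library 1 to library 3, over all tested classes together. A shift shared by all classes of a library is not in that spread.

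pDCs arise in the bone marrow and join features of dendritic cells with those of lymphocytes. They read RNA and DNA through Toll-like receptors held in endosomes, and they are known for secreting large amounts of type I interferon when these receptors are engaged. The factor E2-2, product of Tcf4, sets and keeps their identity. In autoimmune disease they are studied as a source of interferon and of other cytokines within the affected tissue.

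Library 1 held 143 pDCs among 6033 cells, or 2.37% (exact 95% interval 2.00 to 2.79). Library 3 held 30 among 3274 cells, or 0.916% (0.619 to 1.31), and library 2 held 2 among 2333, or 0.0857% (0.0104 to 0.309). The intervals do not overlap; they cover counting error only. The pDCs of libraries 1 and 3 were therefore compared, and set against the 232 and 34 conventional dendritic cells (cDC) and the 1446 and 415 B cells (B) of the same libraries. pDCs were deep cells, with a median of 6303 UMIs in library 1 and 7751.5 in library 3, against 8561 and 7720.5 in cDCs and 2869.5 and 4198 in B cells. Their sums came to 887158 and 227857 UMIs. Of the pDCs of library 3, 66.7% have 2500 genes or more, and of those of library 1, 10.5%. Of the 6 barcodes that occur in more than 1 library, 0 lie on a pDC. A doublet caller marked 6 pDCs of library 1 and 0 of library 3.

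The cells carried the markers of their name. The authors drew the class from these same counts, so the marker levels describe it and are no independent check. Siglech, a pDC receptor of the Siglec family, was seen in all 143 and all 30 pDCs, with a median of 17 and 18 UMIs per cell. Its level was 2798 and 2238 CPM (UMIs per 1000000, scaled between sums) in pDCs of libraries 1 and 3, against 67.6 and 17.4 CPM in cDCs and 5.65 and 0 CPM in B cells. Ccr9, the receptor of the gut chemokine CCL25, had 1806 and 1362 CPM in pDCs, against 77.6 and 13.1 CPM in cDCs and 8.19 and 8.40 CPM in B cells. In both libraries the level in pDCs lay far above that in either of the other classes. Klk1, a tissue kallikrein protease whose relatives are near-identical in sequence, had 1539 and 2278 CPM in pDCs, against 5.01 and 0 CPM in cDCs and 2.54 and 0.525 CPM in B cells. Cox6a2, a respiratory chain subunit otherwise known from heart and skeletal muscle, had 714 and 675 CPM in pDCs, against 3.75 and 0 CPM in cDCs and none in B cells. Its counterpart of other tissues, Cox6a1, had 271 and 265 CPM in pDCs, against 406 and 344 CPM in cDCs and 244 and 219.9 CPM in B cells, and was called against neither in edgeR. In DESeq2 Cox6a1 was lower than in cDCs (log2 fold change −0.46, adjusted p = 0.0174), as in edgeR with library 2 (0.0302). In DESeq2 Cox6a2 was not called against cDCs (adjusted p = 0.361) or B cells (0.106). All 4 markers together were seen in 106 of 143 pDCs (74.1%) of library 1 and in 22 of 30 (73.3%) of library 3. In libraries 1 and 3 pDCs held most marker UMIs of the sorted cells: 2438 of 2613 Siglech UMIs in library 1 and 557 of 568 in library 3, and 622 of 641 and 168 of 168 for Cox6a2. In library 2 its 2 pDCs held 47 of 57 Siglech UMIs and 13 of 58 Ccr9 UMIs. With every cell thinned to 1000 UMIs, Siglech was seen in 92.3% of pDCs of library 1 (exact 95% interval 86.7 to 96.1) and 83.3% in library 3 (65.3 to 94.4). In CD4 T cells, taken as the background, it was seen in 0.325% and in 0 of 879 cells.

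Of these 4 genes, 3 have a promoter in the RefSeq table (GRCm38.p6, the assembly of mm10), and the 250 bases before each start are shown because the genes mark the cells together. Capitals mark every match to the letters CANNTG, the E-box read by basic helix-loop-helix factors such as E2-2, which reads the same on both strands.
Siglech, chr7:55767934-55768183, plus strand: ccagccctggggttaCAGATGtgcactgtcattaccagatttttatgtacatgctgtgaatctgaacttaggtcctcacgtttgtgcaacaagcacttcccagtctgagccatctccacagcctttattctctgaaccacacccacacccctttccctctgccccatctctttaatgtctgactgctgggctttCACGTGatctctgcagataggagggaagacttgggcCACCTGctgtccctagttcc
Ccr9, chr9:123766961-123767210, plus strand: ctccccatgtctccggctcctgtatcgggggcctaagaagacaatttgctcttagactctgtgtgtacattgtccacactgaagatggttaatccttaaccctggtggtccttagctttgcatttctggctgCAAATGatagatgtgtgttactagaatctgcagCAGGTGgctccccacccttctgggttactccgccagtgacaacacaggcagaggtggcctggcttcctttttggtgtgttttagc
Klk1, chr7:44225110-44225359, plus strand: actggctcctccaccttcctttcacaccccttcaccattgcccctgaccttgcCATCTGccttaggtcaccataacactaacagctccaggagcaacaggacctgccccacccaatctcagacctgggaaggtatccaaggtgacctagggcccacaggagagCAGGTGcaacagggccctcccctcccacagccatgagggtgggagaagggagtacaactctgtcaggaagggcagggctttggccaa
The Siglech promoter holds 3 such matches, and those of Ccr9 and Klk1 hold 2 each. Each of the 3 promoters holds exactly 1 match to CAGGTG or, on the other strand, CACCTG. Among all 27025 promoters of the table, 66% hold CANNTG and 17.1% hold CAGGTG on either strand; among the 8676 of tested genes the shares are 56.8% and 14.5%. Of the 362 genes called higher in pDCs than in every other class (the test follows), 290 have a promoter. Of these, 60% hold CANNTG and 19.3% hold CAGGTG on either strand. CAGCTG, another run of the form CANNTG, had 0 matches in each of the 3 promoters shown. It was in 12.8% of all promoters, 11.1% of those of tested genes and 9.66% of the 290. A match is a run of letters and no measured binding site.

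**Figure D1:**
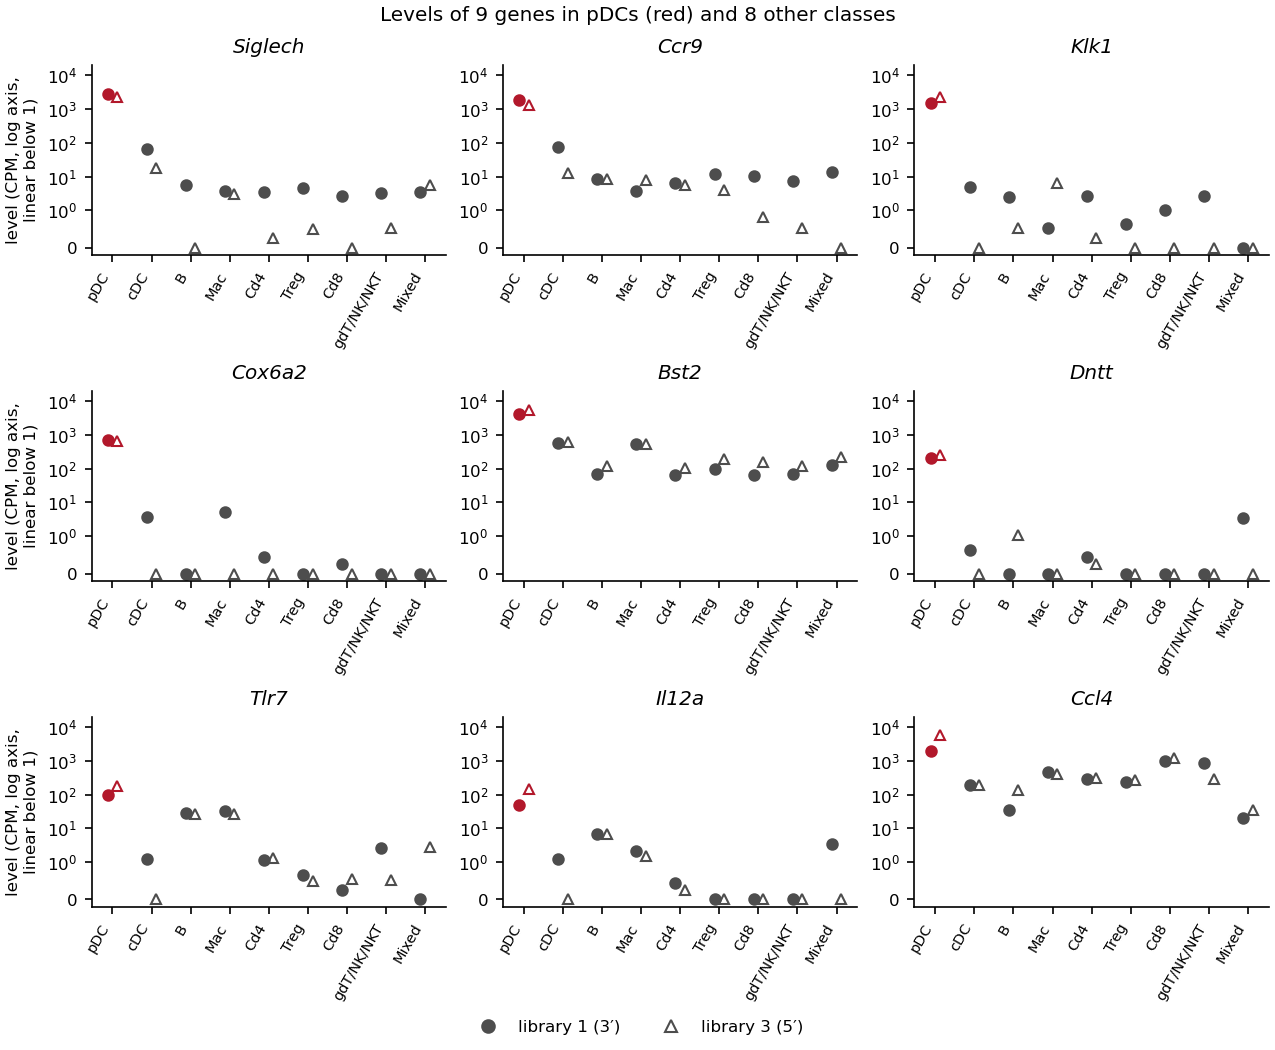
Levels of 9 genes (CPM, on a log axis that is linear below 1) in pDCs and 8 other classes, with 1 point for each library. Siglech, Ccr9, Klk1, Cox6a2, Bst2, Dntt, Tlr7, Il12a and Ccl4 were highest in pDCs in both libraries.

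For every class and library the UMIs of its cells were added up, and edgeR's quasi-likelihood test compared these sums, with the library as a block, over 11199 genes. A gene was called at a Benjamini-Hochberg adjusted p under 0.05. Of the genes tested, 433 (3.87%) had 20 UMIs or more in library 1 or 3 and 0 in the whole of the other: 164 had theirs in library 1 and 269 in library 3. Among them are Mb21d1 and Cgas, an older and the current symbol of 1 gene, so a 0 in one whole library is not read as absence. Without these genes 995 and 1368 of the calls against cDCs given next are left, 1374 and 1525 of those against B cells, and 360 and 123 of those against every class. The authors drew the classes from these same counts, so a p-value is no evidence that the classes are distinct. Against cDCs, 1009 genes were higher in pDCs (9.01% of those tested) and 1390 were lower (12.4%). Against B cells, 1394 were higher (12.4%) and 1543 lower (13.8%). In each of the 8 comparisons with another class, 362 genes were higher (3.23%) and 123 were lower (1.1%). Without the library block the counts were 293 higher and 505 lower against cDCs and 571 and 393 against B cells. Without the pDC sum of library 1 they were 475 and 511 against cDCs and 816 and 638 against B cells, and without the cDC sum of library 1 they were 332 and 699 against cDCs.

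With the cell type markers left out, the genes that stood farthest above every other class encode proteins of unlike kinds. Sh3bgr, a small protein named for its SH3-binding stretch, had 354 and 249 CPM in pDCs and at most a mean of 0.689 CPM in any other class (CD4 T cells). Pir, the iron-binding protein pirin, had 248 and 221 CPM in pDCs against a mean of 1.04 CPM in macrophages, the next class. Outside the pDCs both genes were at trace level: 96.2% and 96.9% of all Sh3bgr UMIs, and 97.3% and 96.5% of all Pir UMIs, lay in pDCs. Dntt, the enzyme that adds bases at the joins of rearranging antigen receptor genes, had 210.1 and 257 CPM, against a mean of 1.68 CPM in the class Mixed. Atp2a1, a calcium pump of the endoplasmic reticulum best known from fast muscle, had 211 and 265 CPM, against a mean of 1.56 CPM in cDCs. Cd59a, which shields cells from complement, had 314.5 and 329.5 CPM in pDCs, against a mean of 4.48 CPM in B cells. The other 7 of the 12 genes farthest above every class were Fads3, Fbxl13, Nrip2, Pnck, Nrxn2, Ccdc162 and Rab6b. Their levels in pDCs ran from 43.6 CPM for Pnck in library 1 to 84.4 CPM for Nrip2 in library 3.

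Against cDCs alone the largest differences were of genes with no UMI in 1 of the 2 classes, where the fold is a bound set by 3 UMIs over both libraries. Sh3bgr was at least 201-fold and Cd59a at least 194-fold higher in pDCs. Slc41a2, a magnesium transporter, was at least 48.4-fold higher, and Hs3st1, which modifies heparan sulfate, at least 51.7-fold higher. Tbxa2r, the thromboxane receptor, was at least 46.2-fold higher. The same rule named Chdh, Grm8, Rab6b, Pnck, Fads3 and Emid1, at least 29.9- to 40.3-fold higher, and Dntt, with 1 UMI in all cDCs (ratio 403, exact 95% counting interval 71.7 to 15990). On the other side, the 12 genes that the rule named had no UMI in pDCs. In both directions the rule left out cell type markers, such as Cdh5 and Xcr1, which are given below. Timd4, a receptor for phosphatidylserine on dying cells, was at least 72.9-fold lower in pDCs, with 190.2 and 230.5 CPM in cDCs. Batf3, the factor that type 1 cDCs need, was at least 51.5-fold lower, with 148 and 69.6 CPM in cDCs. The others were Zmynd15, Anxa1, Mcemp1, Ms4a6d, Pglyrp1, Cd63, Cldn1, Nav1, Anpep and Ifitm6, at least 24.5- to 65.6-fold lower. Fads3, Chdh, Grm8, Hs3st1, Dntt and Cldn1 were not called in DESeq2 (adjusted p from 0.177 to 0.45). Rab6b and Chdh were not called without the cDC sum of library 1 (edgeR adjusted p = 0.0876 and 0.0768), nor Cd63 without the pDC sum of library 1 (0.148).

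Against B cells, Fbxl13 was at least 133-fold, Chdh at least 120-fold and Sh3bp4 at least 102-fold higher in pDCs. Fads2, which makes polyunsaturated fatty acids, was at least 89.1-fold higher, and Fads3, Ccdc162 and Pla2g4f at least 97.2-, 87.5- and 68.1-fold higher. Pir, Klra17, Smim5, Sh3bgr and Dntt completed the list with 1 to 3 UMIs in all B cells. Fcer2a, the low-affinity IgE receptor CD23 of B cells, had no UMI in pDCs and was at least 67.1-fold lower there. Vpreb3, a protein of B cells, was at least 65.6-fold lower, and Dok3, an adaptor that restrains the B cell receptor, at least 46.8-fold lower. Lrrk2, Pgap1, Pxdc1, Irak3, Rapgef4, Smagp, Ankrd33b, Chst10 and Bend5 were at least 17.9- to 41.3-fold lower. Fads2, Fads3, Chdh and Dntt were not called in DESeq2 (adjusted p from 0.204 to 0.281), nor Fads2 without the library block (edgeR adjusted p = 0.0652).

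Genes lower in pDCs than in every other class included survival, cytoskeletal and lineage genes. Id2, an inhibitor of E proteins that holds back pDC development, had 14.9 and 24.1 CPM in pDCs, against 1021 and 552 CPM in cDCs and 111 and 103 CPM in B cells. Cd52, a small surface glycoprotein of lymphocytes, had 449 and 233 CPM in pDCs, against 3973 and 3228 CPM in cDCs and 3914 and 2221 CPM in B cells. For both genes the classes were apart in both libraries. Gbp7, an interferon-induced GTPase, had 6.89 and 12.1 CPM in pDCs, against 128 and 65.2 CPM in cDCs. The survival genes Bcl2a1b and Bcl2a1d were also lower than in every class, but they are near-identical copies between which reads may be split, so their values are uncertain. Kcnn4, Cotl1, Limd2, Smpdl3a, Flna, Ms4a6b and Hilpda completed the 12 genes farthest below every class. Kcnn4 against B cells was not called without the pDC sum of library 1 (edgeR adjusted p = 0.0713) or with equal cells, 30 drawn per class and library (0.135), nor Bcl2a1d without the library block (0.136).

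**Figure D2:**
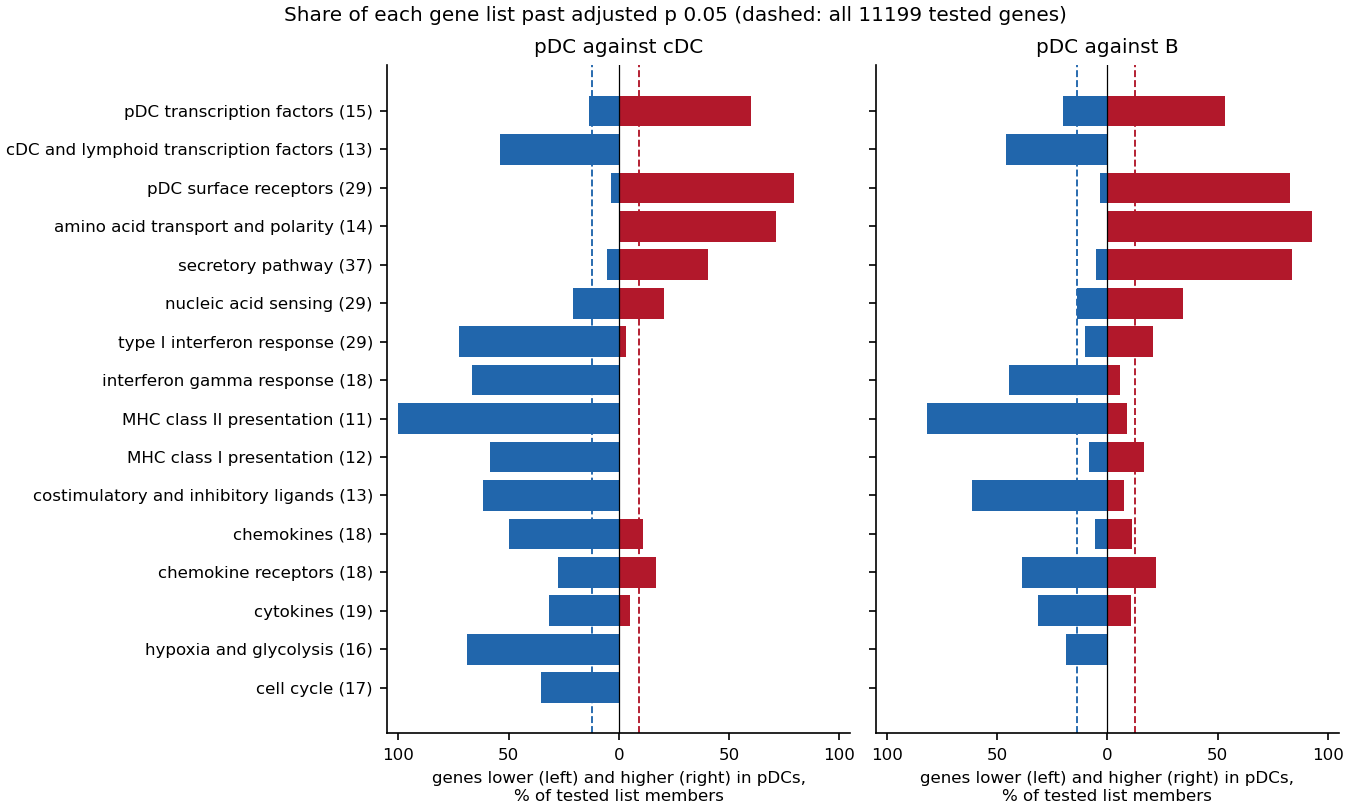
Share of the tested members of 16 gene lists (tested members in brackets) that were called higher (right) or lower (left) in pDCs, against cDCs and against B cells. Dashed lines mark the shares over all 11199 genes tested, and 11 of 11 MHC class II genes were lower against cDCs.

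The gene lists here and below were chosen with earlier results of these data known. Their counts are thus a description and not evidence of direction. Over all tested genes 9.01% were higher and 12.4% lower against cDCs, and 12.4% and 13.8% against B cells. Of 15 tested transcription factors linked to pDCs, 9 were higher and 2 lower against cDCs, and 8 were higher and 3 lower against B cells. Of these factors, 5 were higher than in every class. The median log2 fold change was 1.43 against cDCs, where all genes had a median of −0.07, and 1.15 against B cells, where all genes had −0.20. Runx2, which directs pDCs out of the marrow, had 437 and 378 CPM in pDCs, against 42.5 and 34.8 CPM in cDCs and 9.89 and 11.0 CPM in B cells. Its log2 fold change was 3.36 ± 0.28 (SE) against cDCs and 5.31 ± 0.28 against B cells (edgeR adjusted p = 9.25e-09 and 3.54e-12). Spib, an Ets factor that pDCs share with B cells, had 401 and 342 CPM in pDCs, against 32.5 and 13.1 CPM in cDCs and 162 and 129 CPM in B cells. Tcf4 had 1661 and 639 CPM in pDCs, against 287 and 82.7 CPM in cDCs and 465 and 172 CPM in B cells. Both sums of pDCs stood above both of cDCs and of B cells for Tcf4, and library 3 was lower in each class. Bcl11a, a zinc finger factor that pDCs and B cells need, had 438 and 297 CPM in pDCs, against 115 and 43.5 CPM in cDCs and 181 and 113 CPM in B cells. Irf8, required for pDC function, had 2806 and 2451 CPM in pDCs, against 693 and 687 CPM in cDCs and 448 and 353 CPM in B cells. Irf7, the factor that drives interferon genes, did not differ from cDCs by the test: it had 123 and 583 CPM in pDCs, against 114 and 557 CPM in cDCs (log2 fold change 0.09 ± 0.22). Against B cells, with 23.2 and 119 CPM, it was higher by 2.33 ± 0.23 (edgeR adjusted p = 6.36e-08). Without the library block only 2 members of this list of pDC transcription factors were higher in each comparison: the calls of Spib, Tcf4 and Bcl11a ended against both classes, at edgeR adjusted p from 0.122 to 0.623, and that of Irf7 against B cells at 0.39. Spib against B cells also ended without the pDC sum of library 3 (0.0863), without the B sum of library 1 (0.139) and in DESeq2 (0.466), and Bcl11a against B cells in DESeq2 (0.0625) and with equal cells (0.124).

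Of 13 factors of cDCs and lymphocytes, 7 were lower against cDCs and 6 were lower against B cells. Id2 and Batf3 are given above. Zbtb46, which marks cDCs, had 1 UMI in all pDCs (1.15 and 0 CPM), against 28.8 and 52.2 CPM in cDCs, a ratio of 0.0281 (exact 95% counting interval 0.000701 to 0.163). The B cell factors Ebf1 and Pax5 had 14.9 and 0 CPM, and 3.44 and 0 CPM, in pDCs, against 1571 and 880.0 CPM, and 315 and 61.9 CPM, in B cells. Ebf1 was lower by 7.35 on the log2 scale (SE 0.53).

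Most listed receptors and other surface proteins known from pDCs were higher in them, in a list also chosen with earlier results of these data known. Of 29 tested, 23 were higher and 1 lower against cDCs, and 24 were higher and 1 lower against B cells; 14 were higher than in every class. Bst2, the antiviral tetherin that antibodies to mouse pDCs recognise, had 4102 and 5432 CPM in pDCs, against 579 and 609 CPM in cDCs and 70.9 and 119 CPM in B cells. Pacsin1, an adaptor of vesicle uptake, had 426 and 558.5 CPM in pDCs, against 16.3 and 21.8 CPM in cDCs and 22.6 and 28.9 CPM in B cells. Lair1, an inhibitory collagen receptor, had 655 and 611 CPM in pDCs, against 40.0 and 56.5 CPM in cDCs and 9.32 and 5.25 CPM in B cells. For these 3 genes the pDC sums stood apart from the others in both libraries. Cd7, an immunoglobulin-like receptor of lymphoid cells, had 409 and 1233 CPM in pDCs, against 83.8 and 144 CPM in cDCs and 4.52 and 18.9 CPM in B cells. Klra17, a receptor of the Ly49 family, had 332 and 325 CPM in pDCs, against 52.6 and 104 CPM in cDCs; its relatives are similar in sequence, so its reads may be split. Cd300c had 23.0 and 169 CPM in pDCs and 1 UMI in all cDCs, a ratio of 101 (exact 95% counting interval 17.5 to 4060). The exception against cDCs was Fcer1g, a signalling chain of Fc receptors, with 473 and 550.4 CPM in pDCs, against 716 and 1179 CPM in cDCs. The exception against B cells was Ly6d, with 214 and 153 CPM in pDCs, against 456 and 402 CPM in B cells and 1.88 and 0 CPM in cDCs. Without the library block 11 members of the list of pDC surface receptors were higher against cDCs and 17 against B cells, and the calls of Cd7 (edgeR adjusted p = 0.158) and Klra17 (0.21) against cDCs and of Ly6d against B cells (0.353) ended. The call of Fcer1g against cDCs ended under 6 alternatives, at adjusted p from 0.0611 to 0.364. In DESeq2 the calls of Klra17 against cDCs (0.0659) and of Cd300c against both classes (0.362 and 0.19) ended.

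Genes of nucleic acid sensing moved in both directions. Of 29 tested, 6 were higher and 6 lower against cDCs, and 10 were higher and 4 lower against B cells. Against cDCs 17 were not called. Over all tested genes 9.01% were higher and 12.4% lower against cDCs, and 12.4% and 13.8% against B cells. The count lower against B cells is thus near the share over all genes. The 6 higher against cDCs were Tlr7, Ctsl, Slc15a4, 5430427O19Rik, Pld4 and Unc93b1. Tlr7, the sensor of single-stranded RNA, had 94.1 and 181 CPM in pDCs, against 1.25 and 0 CPM in cDCs and 28.8 and 25.7 CPM in B cells. The ratio to cDCs was 104 (exact 95% counting interval 28.1 to 865), and the log2 fold change against B cells was 2.19 ± 0.30 (edgeR adjusted p = 6.85e-06). Ctsl, a protease that activates endosomal receptors, had 1524 and 2053 CPM in pDCs, against 22.5 and 52.2 CPM in cDCs and 8.19 and 5.25 CPM in B cells. Slc15a4, a lysosomal transporter needed for their signals, had 145 and 261 CPM in pDCs, against 75.1 and 56.5 CPM in cDCs. The gene 5430427O19Rik had 142 and 108 CPM in pDCs, against 28.8 and 34.8 CPM in cDCs, and Pld4, an endosomal exonuclease, had 1020 and 1270 CPM, against 278 and 474 CPM in cDCs. Unc93b1, which carries the receptors to endosomes, had 506 and 1065 CPM in pDCs, against 257 and 587 CPM in cDCs. Tlr9, the DNA sensor of pDCs, was at a low level, with 2.30 and 28.1 CPM in pDCs, from 2 and 7 UMIs, against 2.50 and 4.35 CPM in cDCs and 3.11 and 15.7 CPM in B cells, and was called against neither class. Among those lower against cDCs, Tlr3, an endosomal sensor of double-stranded RNA, had no UMI in pDCs and was at least 15.7-fold lower than in cDCs. Ddx58, the cytoplasmic RNA sensor RIG-I, had 1.15 and 0 CPM in pDCs from 1 UMI, against 21.3 and 30.4 CPM in cDCs and 34.5 and 34.6 CPM in B cells, and was lower than in every class. Ifih1, Irf5, Tmem173 (STING) and Mb21d1 were the others. Mb21d1 and Cgas, an older and the current symbol of the DNA sensor cGAS, were counted, of libraries 1 and 3, in library 1 only and in library 3 only (198 and 66 UMIs over all cells), so the call of Mb21d1 rests on library 1. Of the list of nucleic acid sensing, 3 members were higher and 2 lower against cDCs without the library block, with the calls of Pld4, Slc15a4, Unc93b1 and Ifih1 among those that ended (edgeR adjusted p = 0.539, 0.195, 0.514 and 0.12). Unc93b1 also ended without the pDC sum of library 3 (0.0839) or the cDC sum of library 1 (0.235), Pld4 without the same sums (0.0564 and 0.254) and in DESeq2 (0.448), and Ifih1 without the pDC or the cDC sum of library 1 (0.0697 and 0.162). Without the same sums Mb21d1, from 15 UMIs in cDCs, was not called (adjusted p = 1 in both), nor was Tmem173 (0.352 and 0.202).

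Few interferon transcripts were seen. Of 20 type I and III interferon genes listed, 5 have a row in the table, and Ifnl2 was the only one that passed the filter on low counts. Ifnb1, Ifna9 and Ifnz had 0 UMIs in pDCs, which allows up to 3.38 CPM in library 1 and 13.2 CPM in library 3, and Ifnk had 5 UMIs in library 1. Ifnl2, a type III interferon (chromosome 7, 28508836 to 28510455, minus strand, mm10), had 0 UMIs in the pDCs of library 1 and 30 in those of library 3. These lay in 2 of 30 cells, with 14 and 16 UMIs, or 132 CPM unscaled (exact 95% Poisson interval 88.8 to 188). Library 1 as a whole held 0 Ifnl2 UMIs, as it did of Ifnb1, Ifna9 and Ifnz, so a 0 in its pDCs is not read as absence. The whole of library 3 held 37 Ifnl2 UMIs, and the other 7 lay in cDCs. Ifnl2 was not called against cDCs; its call against B cells, which had none, ended in DESeq2 (adjusted p = 0.314) and without the library block (edgeR, 0.28), and the pDC sum of library 1 is also 0. The receptor genes for type I interferon were higher in pDCs: Ifnar2 had 389 and 538 CPM, against 111 and 169.6 CPM in cDCs and 39.5 and 50.9 CPM in B cells, and was higher than in every class. Ifnar1 had 263 and 245 CPM in pDCs, against 143 and 135 CPM in cDCs and 79.7 and 85.5 CPM in B cells. Ifnar1 against cDCs was not called without the pDC sum of library 1 (edgeR adjusted p = 0.107), without the cDC sum of library 1 (0.082) or with equal cells (0.203).

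Genes induced by type I interferon were mostly lower in pDCs than in cDCs: of 29 tested, 21 were lower and 1, Bst2, was higher. One of the 21, Mx1, had no UMI in any cell of library 3. The median log2 fold change was −3.01, against −0.07 for all genes. Ifitm3, which blocks viral entry, had 5.74 and 12.1 CPM in pDCs, against 2208 and 2832 CPM in cDCs and 12.2 and 9.45 CPM in B cells. Ifit3 and Rtp4 had no UMI in pDCs and were at least 11.2-fold and 18.6-fold lower than in cDCs. Isg15, a ubiquitin-like antiviral protein, had 6.89 and 161 CPM in pDCs, against 246 and 652 CPM in cDCs and 23.2 and 34.1 CPM in B cells; pDCs were below cDCs in both libraries, and on either side of B cells. Against B cells 6 members were higher (Ifi44, Bst2, Usp18, Irf7, Oasl2 and Trim30a), 3 lower (Rtp4, Ifit3 and Zbp1) and 20 not called. All tested genes had 12.4% higher and 13.8% lower in that comparison, so the 3 lower are near that share. Of 18 genes of the response to interferon gamma, 12 were lower against cDCs, and 8 were lower and 1 higher against B cells. Cxcl9, a chemokine for T cells, had 2.30 and 0 CPM in pDCs, against 1142 and 204 CPM in cDCs, and Cxcl10 had 2.30 and 16.1 CPM, against 333 and 248 CPM in cDCs. Bst2 is in the type I list, whose total per cell was not lower in pDCs: at 2000 UMIs per cell this total had a median of 9 and 17 UMIs in pDCs, against 8 and 8 in cDCs and 1 and 2 in B cells. In the type I interferon response list 7 members were lower against cDCs without the library block and 13 without the pDC sum of library 1. The calls of Rtp4, Ifit3 and Isg15 against cDCs ended without the block (edgeR adjusted p = 0.163, 0.168 and 0.319). Against B cells the calls of Rtp4 and Ifit3 ended without either pDC sum (0.133 to 0.228), without the block (0.319 and 0.428) and without the B sum of library 3 (0.192 and 0.0671), and that of Ifit3 also without the B sum of library 1 (0.0561) and with library 2 (0.0682). That of Usp18 ended without the pDC sum of library 3 (0.0557) or the block (0.351), that of Oasl2 without the pDC sum of library 3 (0.553), and that of Zbp1 without the pDC sum of library 1 (0.223).

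**Figure D3:**
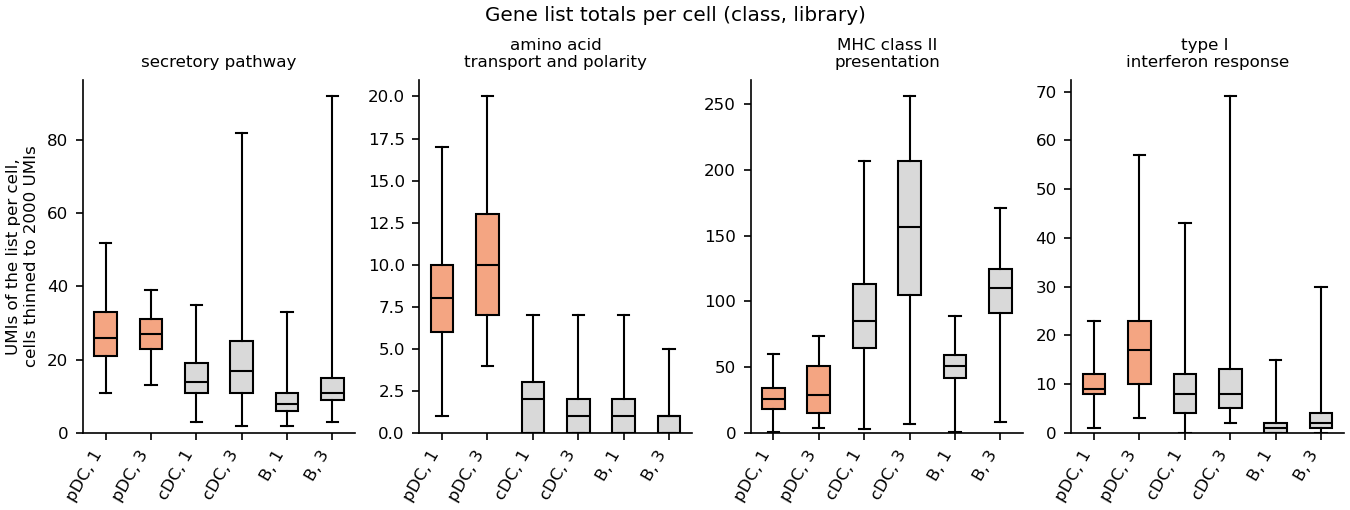
UMIs of 4 gene lists per cell, with each cell thinned to 2000 UMIs, in pDCs, cDCs and B cells of libraries 1 and 3. Lines are medians, boxes quartiles and whiskers the lowest and highest cell; the secretory pathway median was 26 and 27 in pDCs, 14 and 17 in cDCs and 8 and 11 in B cells.

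Secretory pathway genes were mostly higher in pDCs than in B cells, and fewer were called against cDCs. Of 37 tested secretory pathway genes, 31 were higher and 2 lower against B cells, and 15 were higher, 2 lower and 20 not called against cDCs; 8 were higher than in every class. Xbp1, the factor that expands the endoplasmic reticulum, had 553 and 727 CPM in pDCs, against 128 and 230.5 CPM in cDCs and 61.6 and 92.4 CPM in B cells. It was higher by a log2 fold change of 1.93 ± 0.22 against cDCs and 3.07 ± 0.22 against B cells (edgeR adjusted p = 1.15e-06 and 3.59e-10). Herpud1, of the disposal of misfolded proteins, had 613 and 1004 CPM in pDCs, against 288 and 378 CPM in cDCs and 243 and 295 CPM in B cells. Mzb1, a chaperone of antibody-making cells, had 220.4 and 241 CPM in pDCs, against 8.76 and 0 CPM in cDCs, but was lower than in B cells, which had 546 and 462 CPM. Sec61b, part of the channel into the endoplasmic reticulum, had 1300 and 904 CPM in pDCs, against 1148 and 809 CPM in cDCs and 335 and 267 CPM in B cells, and was called against B cells only. Syvn1 was lower against B cells, and Rpn1 and Calr were lower against cDCs. Against cDCs the secretory pathway count fell to 4 higher and 1 lower without the pDC sum of library 1, to 5 and 0 without the cDC sum of library 1 or without the library block, and to 7 and 0 with equal cells. Against B cells it was 20 and 1 without the pDC sum of library 1, 15 and 0 without the block and 19 and 0 with equal cells. The calls of Rpn1 and Calr against cDCs ended without the cDC sum of library 1 (edgeR adjusted p = 0.0698 and 0.108), and that of Syvn1 against B cells with equal cells (0.494). Mzb1 against B cells ended without the pDC sum of library 1 (edgeR adjusted p = 0.111), without the block (0.439), with equal cells (0.243) and in DESeq2 (0.136).

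The list called amino acid transport and polarity holds genes known from earlier results of these data to be high in pDCs, so its counts are a description and not evidence of its direction. Of its 14 tested genes, 10 were higher against cDCs and 13 against B cells. The amino acid transporter genes Slc7a5, Slc3a2 and Slc38a2 and the nucleoside transporter gene Slc29a3 were not called against cDCs. The 10 that were higher were Grm8, Atp2a1, Atp1b1, Rpgrip1, Smim5, Upb1, Pltp, Lifr, Slc15a4, a carrier of histidine and small peptides, and Ppfia4. Rpgrip1 and Ppfia4 were not called without the cDC sum of library 1 (edgeR adjusted p = 0.136 and 0.385). Smim5, a small membrane protein, had 354 and 434 CPM in pDCs, against 19.4 and 21.8 CPM in cDCs, and 3 UMIs in all B cells. Upb1, an enzyme of pyrimidine breakdown, had 262 and 225 CPM in pDCs, against 11.9 and 26.1 CPM in cDCs and 3.11 and 1.57 CPM in B cells. Grm8, a glutamate receptor known from nerve cells, had 47.1 and 96.4 CPM in pDCs, no UMI in cDCs and 0.282 and 1.05 CPM in B cells. The classes did not overlap for these genes. At 2000 UMIs per cell the list gave a median of 8 and 10 UMIs in pDCs, against 2 and 1 in cDCs and 1 and 1 in B cells. Without the library block 6 members of the amino acid transport and polarity list were higher against cDCs. Grm8 was not called in DESeq2 (adjusted p = 0.44 against cDCs and 0.471 against B cells).

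Transcripts of MHC class II presentation were mostly lower in pDCs than in cDCs and B cells. All 11 tested genes of MHC class II presentation were lower against cDCs, and 9 were lower and 1, Ctss, higher against B cells. H2-Ab1, a chain of the MHC class II molecule I-A, had 2032 and 1045 CPM in pDCs, against 10840 and 7873 CPM in cDCs and 4540 and 2950 CPM in B cells. Cd74, the invariant chain, had 6126 and 8514 CPM in pDCs, against 22520 and 41060 CPM in cDCs and 13440 and 25790 CPM in B cells. Both transcripts were thus abundant in pDCs, but below the levels of cDCs and B cells in each library. Ciita, the master switch of these genes, had 44.8 and 24.1 CPM in pDCs, against 348 and 165 CPM in cDCs and 222 and 159.5 CPM in B cells. H2-Ob, a modulator of peptide loading, had 9.18 and 0 CPM in pDCs, against 96.4 and 87.0 CPM in cDCs and 353 and 277 CPM in B cells. At 2000 UMIs per cell the MHC class II presentation list gave a median of 26 and 28.5 UMIs in pDCs, against 85 and 157 in cDCs and 51 and 110 in B cells. Without the library block 4 members were lower against cDCs and 2 against B cells. Ctss was not called against B cells under 6 alternatives, at edgeR adjusted p from 0.0539 to 0.141. The calls of H2-Ab1 and Cd74 against B cells ended without the pDC sum of library 1 (edgeR adjusted p = 0.293 and 0.106) and without the B sum of library 3 (0.529 and 0.236); that of H2-Ab1 also ended in DESeq2 (0.196) and in a fit with library 2 (0.0622).

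Transcripts of costimulation and of peptide loading for MHC class I mostly followed the same direction against cDCs. Of 13 costimulatory and inhibitory ligands, 8 were lower against cDCs, and 8 were lower and 1, Icam1, higher against B cells. Cd86, a ligand that CD28 on T cells reads, had 8.04 and 4.02 CPM in pDCs, against 315 and 148 CPM in cDCs and 199.7 and 96.0 CPM in B cells. It was lower by 5.22 on the log2 scale (SE 0.49) against cDCs and by 4.53 (SE 0.49) against B cells (edgeR adjusted p = 4.5e-08 and 2.31e-07). Cd40 had 3.44 and 0 CPM in pDCs, against 130.2 and 248 CPM in cDCs and 65.3 and 131 CPM in B cells. Cd80 had no UMI in pDCs and was at least 14.1-fold lower than in cDCs and 6.58-fold lower than in B cells. Cd274, the inhibitory ligand PD-L1, had 8.04 and 8.04 CPM in pDCs and was lower than in every class. Icam1 had 60.8 and 506 CPM in pDCs, against 49.2 and 62.5 CPM in B cells, so its call rests on library 3 and ended without the pDC sum of that library (edgeR adjusted p = 0.629). Of 12 genes of MHC class I presentation, 7 were lower against cDCs; the peptide transporter Tap1 had 75.8 and 84.4 CPM in pDCs, against 277 and 404 CPM in cDCs. Cd80 against B cells was not called without the pDC sum of library 1 (0.13), and Icam1 against B cells not without the library block (0.0935).

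Among chemokines and cytokines few genes were higher in pDCs. Their counts are near or below the shares higher over all tested genes, 9.01% against cDCs and 12.4% against B cells. Of 18 chemokines, Ccl4 and Ccl3 were higher and 9 were lower against cDCs; the same 2 were higher and 1, Ccl5, was lower against B cells. Ccl4, an inflammatory chemokine (chromosome 11, 83662584 to 83664683, plus strand, mm10), had 1934 and 5954 CPM in pDCs, against 195 and 187 CPM in cDCs and 34.8 and 141 CPM in B cells. The next class was CD8 T cells, with 997 and 1182 CPM. The pDC level was above all 8 other classes in both libraries, and 1685 of the 10108 Ccl4 UMIs of library 1 and 1482 of the 8627 of library 3 lay in pDCs. Ccl3 had 138 and 514 CPM in pDCs, against 68.8 and 4.35 CPM in cDCs and 13.3 and 14.2 CPM in B cells. Ccl5 had 54.0 and 137 CPM in pDCs, against 456 and 1305 CPM in cDCs and 513 and 855 CPM in B cells. Ccl17 and Ccl22, ligands of CCR4, had no UMI in pDCs, against 191 and 8.70 CPM and 110.1 and 26.1 CPM in cDCs. Of 19 cytokines, Il12a was higher and 6 were lower against cDCs, and Tnf and Il12a were higher and 6 were lower against B cells. Il12a, which codes for the subunit shared by IL-12 and IL-35 (chromosome 3, 68690644 to 68698547, plus strand), had 48.2 and 145 CPM in pDCs, from 42 and 36 UMIs, against 1.25 and 0 CPM in cDCs and 6.78 and 6.82 CPM in B cells. It was higher than in every class, and 42 of the 76 Il12a UMIs of library 1 and 36 of the 52 of library 3 lay in pDCs. Its partner Il12b had 0 UMIs in pDCs, against 33.2 and 43.5 CPM in cDCs. Ccl3 against cDCs ended without the pDC sum of library 3 (edgeR adjusted p = 0.0818) and without the library block (0.0715). Without the pDC sum of library 1 the calls of Ccl17, Ccl22 and Il12b ended (0.397, 0.0995 and 0.256), as they did in DESeq2 (0.399, 0.0529 and 0.541).

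Tnf, the cytokine TNF that the study's title names (chromosome 17, 35199381 to 35202007, minus strand, mm10), had 4.59 and 434 CPM in pDCs of libraries 1 and 3, against 15.6 and 60.9 CPM in cDCs and 9.04 and 7.35 CPM in B cells. In library 1 the pDC level was the lowest of the 9 classes, and in library 3 it was the highest, above macrophages with 49.4 and 242.8 CPM. Unscaled, these pDC values are 4.51 CPM from 4 UMIs (exact 95% Poisson interval 1.23 to 11.5) and 474 CPM from 108 UMIs (389 to 572), and they cover counting error only. Tnf was seen in 4 of 143 pDCs of library 1, with 1 UMI each, and in 10 of 30 pDCs of library 3, where 1 cell held 42 of the 108 UMIs. The edgeR call against B cells (log2 fold change 3.90 ± 0.85, adjusted p = 0.0013) rests on library 3: without its pDC sum the value was −0.62 (adjusted p = 0.811), and library 1 alone gave −0.84 on the log2 scale of CPM plus 1. Against cDCs Tnf was not called (2.23 ± 0.90, edgeR adjusted p = 0.083). It was called with no filter on low counts (adjusted p = 0.0167), with only pDC, cDC and B sums in the fit (0.0147), with equal cells (0.00131), with library 2 (0.0357) and without the pDC sum of library 1 (3.70, 0.000131), and was −2.20 without the pDC sum of library 3 (0.2). Other inducible genes differed between the libraries in the same direction. Nfkbia, the inhibitor that NF-kB induces, had 223 and 2246 CPM in pDCs, against 858 and 1949 CPM in cDCs and 282 and 303 CPM in B cells. Jun, an immediate-early factor, had 438 and 1073 CPM in pDCs, against 402 and 905 CPM in cDCs and 204 and 158 CPM in B cells, and Fos had 647 and 1414 CPM, against 947 and 2449 CPM in cDCs and 365 and 388 CPM in B cells. B cells thus did not show this difference between the libraries, and cDCs did. The library differences in pDCs are those of 2 libraries that also differ in chemistry and in gene number per cell; the part of these in them was not tested. The calls of Nfkbia, Jun and Fos against B cells ended without the pDC sum of library 3 (edgeR adjusted p = 0.735, 0.199 and 0.16).

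**Figure D4:**
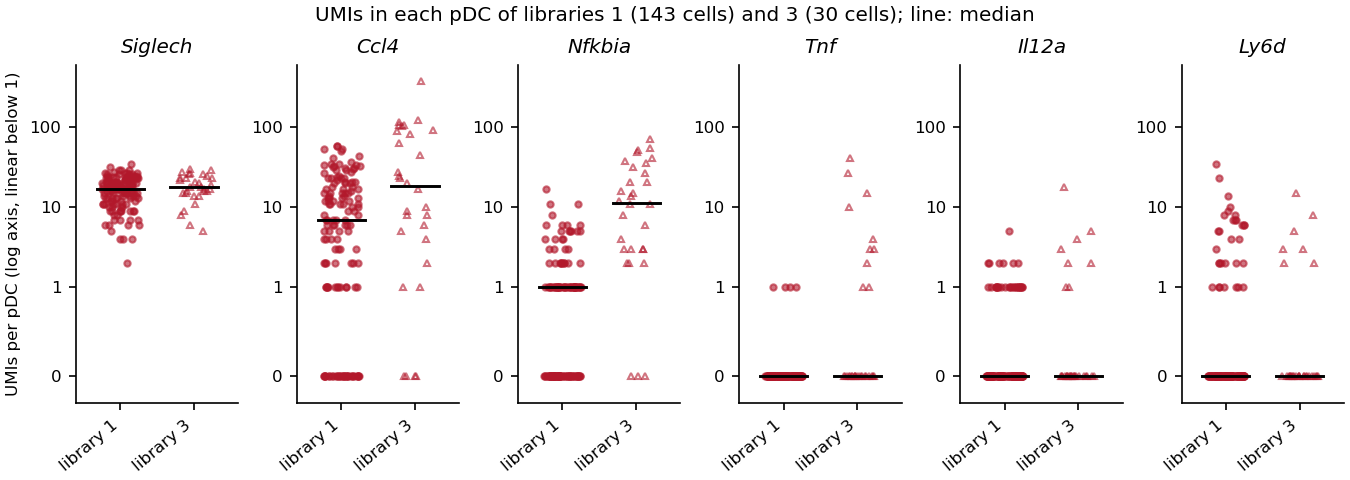
UMIs of 6 genes in each pDC of library 1 (143 cells) and library 3 (30 cells), on a log axis that is linear below 1, with the median as a line. The Siglech median was 17 and 18, while that of Nfkbia was 1 and 11.5, and Tnf reached 1 UMI in library 1 and 42 in library 3.

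Within library 3 the inducible transcripts did not all peak in the same cell. Ccl4 and Ccl3 were highest in the same cell, and Tnf, Jun and Fos were highest together in a different cell. Ifnl2 and Nfkbia shared a further cell, and Il12a was highest in yet another. The 2 pDCs with Ifnl2 had 14 and 16 UMIs of it, 380 and 118 of Ccl4, 55 and 2 of Ccl3, 4 and 1 of Tnf and 49 and 72 of Nfkbia. The cell with 380 Ccl4 UMIs held 25.6% of all Ccl4 UMIs of the pDCs of this library, which had a median of 18.5 per cell and quartiles of 4.25 and 88. The cell with most Tnf, 42 UMIs, had 82 of Ccl4, 96 of Jun and 0 of Ifnl2. The cell with most Il12a, 18 of the 36 UMIs, had 94 of Ccl4 and 3 of Tnf. Of the 10 pDCs with Tnf, 8 had Ccl4, 9 had Jun and 10 had Nfkbia, while Ccl4 was seen in 26, Jun in 16 and Nfkbia in 27 of all 30. In library 1, 110 of 143 pDCs had Ccl4, with a median of 7 and at most 58 UMIs. At 1000 UMIs per cell Ccl4 was seen in 58.0% and 66.7% of pDCs of libraries 1 and 3, against 8.62% and 6.06% of cDCs, 2.45% and 4.15% of B cells and 7.53% and 12.9% of CD4 T cells. These cells were chosen for description after their values were seen.

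Genes otherwise known from lymphocyte development were part of the pDC profile. Of 20 tested genes of phosphoinositide and lymphoid signalling, 9 were higher and 1 lower against cDCs, and 6 were higher and 8 lower against B cells. Dntt was seen in 83 of 143 pDCs of library 1 and 22 of 30 of library 3; pDCs held 183 of the 187 Dntt UMIs of library 1 and 64 of the 67 of library 3. Ptcra, the surrogate chain of the pre-T cell receptor, had 17.2 and 32.1 CPM in pDCs, from 15 and 8 UMIs, against 1.25 and 0 CPM in cDCs and no UMI in B cells, and was higher than in every class. Blnk, an adaptor of the B cell receptor, had 344 and 389.7 CPM in pDCs, against 8.76 and 0 CPM in cDCs and 233 and 218 CPM in B cells. Ighm, the heavy chain of IgM, had 992 and 671 CPM in pDCs, against 199 and 139 CPM in cDCs and 1937 and 445 CPM in B cells. At 1000 UMIs per cell it was seen in 58.7% and 53.3% of pDCs, against 14.7% and 15.2% of cDCs, 66.4% and 34.2% of B cells, and 6.62% and 7.17% of CD4 T cells, which do not make it. The light chain Igkc was seen in 24.5% and 3.33% of pDCs, against 12.3% and 3.87% of CD4 T cells, so in library 3 it was at the background. Cd79a, needed for the B cell receptor at the surface, had 35.6 and 4.02 CPM in pDCs, against 2290 and 3078 CPM in B cells. In DESeq2 the calls of Dntt ended against cDCs and B cells (adjusted p = 0.27 and 0.204), as did those of Ptcra (0.587 and 0.226), which against cDCs also ended without the pDC sum of library 3 (0.0783), the cDC sum of library 1 (0.28) or the library block (0.175).

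Receptors that place and sustain cells differed by class. Of 18 chemokine receptors, 3 were higher and 5 lower against cDCs, and 4 were higher and 7 lower against B cells. Cxcr3, which follows CXCL9 and CXCL10, had 87.2 and 84.4 CPM in pDCs, against 6.26 and 47.9 CPM in cDCs and 24.3 and 41.5 CPM in B cells. Xcr1, of type 1 cDCs, had no UMI in pDCs and was at least 52.7-fold lower than in cDCs, and Ccr7, which leads cells to lymph nodes, had 19.5 and 28.1 CPM in pDCs, against 332 and 230.5 CPM in cDCs and 729.5 and 1496 CPM in B cells. Of 19 receptors of growth factors and cytokines, 5 were higher and 6 lower against cDCs, and 8 were higher and 2 lower against B cells. The shares over all tested genes were 9.01% higher and 12.4% lower against cDCs, and 12.4% and 13.8% against B cells. The 2 lower against B cells are near that share. Il7r, the receptor chain for interleukin 7, had 677 and 526 CPM in pDCs, against 82.0 and 56.5 CPM in cDCs and 47.5 and 52.5 CPM in B cells; CD4 T cells had 559 and 440 CPM. Flt3, the receptor both dendritic lineages depend on, had 138 and 169 CPM in pDCs, against 107 and 213 CPM in cDCs, whose values lie on either side, and 3.67 and 3.15 CPM in B cells. Kit had 1.15 and 0 CPM in pDCs, against 142 and 161 CPM in cDCs. Cxcr3 was not called without the pDC sum of library 1 against cDCs (edgeR adjusted p = 0.0511) and B cells (0.3), without the cDC sum of library 1 against cDCs (0.136), or without the library block (0.258 and 0.375).

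Proteases, energy and division genes completed the profile. Of 13 cathepsins and their inhibitor, 4 were higher and 3 lower against cDCs, and 8 were higher and 0 lower against B cells; Ctsb, a lysosomal protease, had 1314 and 2246 CPM in pDCs, against 218 and 426 CPM in cDCs and 68.7 and 114 CPM in B cells. Of 16 genes of hypoxia and glycolysis, 11 were lower against cDCs and 3 against B cells. The shares over all tested genes were 9.01% higher and 12.4% lower against cDCs, and 12.4% and 13.8% against B cells. The 3 lower against B cells are thus near that share. Eno1, enolase, had 49.4 and 84.4 CPM in pDCs, against 178 and 274 CPM in cDCs and 101 and 269 CPM in B cells. Of 17 cell cycle genes, 6 were lower against cDCs, and against B cells none of the 17 was called. Mki67, a mark of dividing cells, was seen in 7 of 143 and 0 of 30 pDCs. Klk1b27, of the same chromosome 7 cluster as Klk1, had 439.6 and 454 CPM in pDCs, against 4.38 and 0 CPM in cDCs; kallikreins are near-identical and reads may be split between them, so both values are uncertain. In the list of hypoxia and glycolysis 7 members were lower against cDCs without the pDC or the cDC sum of library 1 and 5 without the library block, and Eno1 was then not called (edgeR adjusted p = 0.211 against cDCs and 0.277 against B cells).

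Markers of other cell types were checked in the pDCs. The summed level of 8 B cell markers was 114.8 and 12.05 CPM in pDCs, against 83.85 and 21.75 CPM in cDCs and 7213 and 6090 CPM in B cells. A UMI of them was seen in 30 of 143 and 3 of 30 pDCs. In library 1, 3 pDCs had 5 UMIs or more of them, up to 24, and the doublet caller marked none of the 3. The summed level of 8 cDC markers was 433 and 755 CPM in pDCs, against 1066 and 1514 CPM in cDCs and 748.4 and 1524 CPM in B cells, where B cells of library 3 were at the level of its cDCs, and Xcr1 was at 0 in pDCs; Flt3 and Cd209a, which pDCs also express, were in that sum. Of 8 macrophage markers, Csf1r, Adgre1 and Mertk were at 0 in pDCs, while Cd68, a lysosomal protein of phagocytes and pDCs, had 349 and 369.6 CPM. The summed level of the 8 was 441.9 and 373.7 CPM, with a UMI in 127 of 143 and 26 of 30 pDCs and up to 24 in 1 cell. That of 6 T cell markers was 172.2 and 136.6 CPM in pDCs, with a UMI in 52 of 143 and 21 of 30. That of 6 plasma cell markers, Mzb1 among them, was 252.5 and 277.2 CPM, with a UMI in 83 of 143 and 25 of 30. The fibroblast markers Col1a1 and Dcn and the erythrocyte marker Hba-a1 were at 0. Of the endothelial markers, Cdh5, the cadherin of vessel walls, had 80.3 and 68.3 CPM in pDCs, against 0 and 0 CPM in cDCs and 0.282 and 0 CPM in B cells, and was higher than in every class. Pecam1 and Kdr had 63.1 and 48.2 CPM, and 51.6 and 36.2 CPM, in pDCs, and 90 of 143 and 18 of 30 pDCs had a UMI of the endothelial list. The summed level of the endothelial list was 195 and 153 CPM in pDCs, against 100.1 and 26.1 CPM in cDCs and 149.7 and 95.5 CPM in B cells. The part of other cells' transcripts in the results was not tested.

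pDCs varied among themselves in a few genes. In library 1, at 2000 UMIs per cell, the median ratio of variance to mean over genes was 1.05, and the 12 genes of highest ratio were Gm42418, Ly6d, Malat1, Jun, Ccl4, Igkc, Ccl3, Cd74, Klk1, Klf2, Ly6a and Ifi27l2a. Ly6d, a surface protein of early B lineage cells, had a ratio of 6.15 there and 3.38 in library 3. Its counts were uneven: 112 of 143 pDCs of library 1 (78.3%) and 23 of 30 of library 3 (76.7%) had none. A further 16 and 4 had 1 to 4 UMIs, and 15 and 3 had 5 UMIs or more, with up to 35. The cells with 5 or more had a median of 16 and 18 Siglech UMIs, against 17 and 17 in those with none, and 3 of 15 and 0 of 3 had a UMI of the B cell markers, against 22 of 112 and 3 of 23. Cells with none and cells with 5 or more thus had like medians of Siglech. The class was drawn from these same counts, so this cannot test whether both kinds are pDCs. Klk1 had a ratio of 3.19 and 4.12 and a range of 0 to 48 and 0 to 55 UMIs per cell before thinning. Ccl4 had a ratio of 5.88 in library 1 and 25.2 in library 3, and Jun 5.93 and 13.8. Gm42418, a predicted gene that overlaps ribosomal RNA, and Malat1, a nuclear RNA, had 74.8 and 6.11 in library 1. These ratios compare cells within a library and were given no test.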

How the data were processed

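CD45+ cells of NOD.AIRE GW/+ sciatic nerve were profiled in 3 droplet libraries of 22587246, 11398628 and 13791264 UMIs. The authors deposited UMI counts of 17168 genes in 11640 cells, and a cell table with classes, clusters and the percent of mitochondrial UMIs, which the counts give again in every cell. Cell Ranger 5.0.1, Seurat 4.0 and mm10 are named in the submitters' processing notes, without their roles. Cells were mapped to libraries by the labels' cell numbers, and 0 columns of per-sample values were left unused.

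Counts were summed by class and library for the 9 classes with 20 cells or more in libraries 1 and 3 (18 sums) and tested with edgeR 4.0.16 in R 4.3.3 (TMM, quasi-likelihood, library as a block, Benjamini-Hochberg over 11199 genes kept by filterByExpr; common dispersion 0.0211, 8 residual degrees of freedom). Classes of a library come from the same nerve sample, which pairs the sums: deviations of pDC sums correlated by 0.524 with those of cDC and by 0.66 with those of B sums. DESeq2 1.42.0 was an alternative. A fold against 0 UMIs uses a floor of 3 UMIs over both libraries. Shares come from cells thinned to 1000 UMIs, with exact 95% intervals; PCR and sampling of cells are not in them. Doublets were called with scrublet through scanpy 1.11.5 and kept. The steps were tested on simulated data. Named genes are the 12 called genes of largest fold change in each direction, with the same sign in both libraries and 10 UMIs or more in the higher class in each. Left out were the 4 pDC markers and the markers of all other cell types checked in the pDCs. Genes of mitochondria, ribosomal proteins and receptor segments, and predicted genes with no name, were also left out. List members given as examples, and single cells, were chosen after their values were seen. The members and lists were chosen with earlier results of these data known. Some items are not reported here.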

Additional observations from a re-analysis of the deposited data

Results flagged for a closer look

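Library 2 entered no test, and its 2 pDCs carried the markers of the class. The authors' label of these cells was drawn from the same counts, so this is a description and no independent evidence. Siglech stood at 2780 CPM in these pDCs (47 UMIs), against 0 CPM in the 784 CD4 T cells of the same library. Ccr9 stood at 769 CPM in the pDCs, against 9.33 CPM in CD4 T cells. Klk1 stood at 2130 CPM and Cox6a2 at 769 CPM in the pDCs, against 0 CPM for both in CD4 T cells. Of the 36 Klk1 UMIs, 35 lay in 1 of the pDCs.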

How the results depend on the processing

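Without the replicate block the genes called numbered 798 against cDCs, 964 against B cells, 104 higher and 46 lower than in every class, against 2399, 2937, 362 and 123 with it. With equal cells (30 per class and library) they numbered 805, 720, 122 and 33. Leaving out 1 sum of pDCs, cDCs or B cells gave 986 to 2321, 1454 to 3062, 203 to 341 and 57 to 118. The lowest came without the pDC sum of library 1, save 203, which came without the cDC sum of library 1 (1031 called against cDCs). Under RLE size factors, DESeq2, no filter on low counts, no doublets or with library 2 each count stayed within 1.5 times the reported one; a fit of pDC, cDC and B alone gave 2282 and 2729 and no count against every class. Called values that changed sign were those of Tnf and Nfkbia against B cells: −0.62 and −0.30 without the pDC sum of library 3 and, in library 1 alone, −0.84 and −0.34, against 3.90 and 1.83 reported. Without the other sums they ran up to 5.28 and 2.81. Values that were not called also changed sign, among them those of Tnf, Jun, Fos, Icam1 and Flt3 against cDCs. Mb21d1 against cDCs, with 0 UMIs in both sums of library 3, ran from −7.26 to 0.16 over these omissions, the last without the pDC sum of library 1. The causes of the other changes were not tested. The 30 pDCs of library 3 limit every result: a gene at 0 UMIs there may still reach 13.2 CPM.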
